A study of Rattus norvegicus with 22 samples.

Results

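Engineered cardiac tissues that were stretched cyclically while the kinase inhibitor BIRB796 was present were set against tissues that had BIRB796 alone. The 8 arrays of this comparison were taken by their titles, 4 for stretch with BIRB796 and 4 for BIRB796 without stretch, out of 22 arrays in the series. Each tissue was a gel cylinder of ventricle cells from Sprague Dawley rat embryos of gestational day 14.5, held by anchors at its ends and kept in culture for 7 days. From day 5 both groups had 10 µM of BIRB796 for 48 h, and the stretched group was also lengthened by 5% at 0.5 Hz over the same 48 h. Tissues with no treatment (control) and with stretch alone made up the other groups, of 7 arrays each. The labels give no solvent for the inhibitor. They name no separate culture or litter for a replicate, so the p-values below cover the spread between these samples, which may be technical. The labels give BIRB796 as an inhibitor of p38 mitogen-activated protein kinase (MAPK), while the title of the series names tyrosine kinase.

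The p38 kinases are switched on by mechanical load, cytokines and other stress, and pass the signal on through kinases such as MAPKAPK2 to transcription factors and to RNA-binding proteins. In heart muscle, load is known to raise natriuretic peptides and genes of the muscle's Z-discs. The comparison asks which RNA differences accompany stretch when BIRB796 is present. The activity of p38 itself is not measured by these arrays. The genes described first make cholesterol and unsaturated fatty acids. Cells tune that pathway by their sterol content. When membrane sterol is low, the SREBP transcription factors leave the endoplasmic reticulum and are then cut free from their membrane. They switch on the genes of the mevalonate and cholesterol pathway and fatty acid desaturases. SREBP acts at promoters together with other factors, among them NF-Y, which binds the letters CCAAT.

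RNA was read on 1-colour Agilent arrays, and a level here is the log2 signal of a gene's probe minus the array's 75th percentile, so 1 unit is a doubling. The 8 arrays were scanned in 1 session, with a 75th percentile signal from 2113 to 3354 and 72.84% to 79.85% of probes above background. Slide 6 held replicate 1 of both groups, slide 9 held BIRB796 replicates 2 to 4 with stretch replicate 4, and slide 8 held stretch replicates 2 and 3. Replicate 1 of both groups stood apart from the other 6 arrays in a principal component analysis: on component 1 (37.6% of the variance) they lay at -29.0 and -37.6 against 4.02 to 28.8. Results below are therefore also given within slide 6 (1 array against 1) and within slide 9 (1 array against 3). Heart muscle genes were bright in both groups: the alpha-myosin heavy chain Myh6 lay between 7.17 and 7.57 and cardiac troponin T, Tnnt2, between 7.35 and 7.75 on the 8 arrays. The cardiac transcription factor Nkx2-5 lay between 1.38 and 1.69.

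Of 19611 genes tested, limma called 5 higher and 0 lower in stretched tissue with BIRB796 (0.0255% and 0%, adjusted p under 0.05). At an unadjusted p under 0.05, 1335 genes were higher (6.81%) and 623 were lower (3.18%). In 1015 genes (5.18%) all 4 stretched arrays lay above all 4 others, and in 399 (2.03%) all lay below. The median difference over all genes was 0.05, and 62.5% of differences were above 0. These shares depend on how arrays are scaled. Without overlap, 2.20% of genes lay above and 2.59% below with the array median, 3.12% and 3.35% with quantile scaling, and 2.86% and 2.91% with normexp and quantile scaling. The share of differences above 0 was 45.9% with the array median, 49.9% with quantile scaling, 49.7% with normexp and quantile scaling and 53.2% in the authors' deposited table.

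The gene with the smallest p was Scd, which encodes stearoyl-CoA desaturase, the enzyme that puts a double bond into saturated fatty acids. Its level was -1.68, -1.57, -1.53 and -1.44 in BIRB796 tissue and -0.43, -0.66, -0.44 and -0.53 in stretched tissue. Scd rose 2.06-fold with stretch, a log2 difference of 1.04 ± 0.08 (SE, n = 4 per group, limma with Benjamini-Hochberg adjustment, adjusted p = 0.0291). The lowest stretched array lay 0.78 above the highest BIRB796 array. The control arrays of the same session had Scd at -0.81, -0.67, -0.56 and -1.13, above all 4 BIRB796 arrays, and 3 of these 4 lay below the lowest stretched array. Scd was 1.25 higher within slide 6 and 0.99 higher within slide 9. Its probe lies at chr1:249458860-249458919 of build rn4, the build the array was designed on.

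The other 4 genes called had smaller differences. Styx, a catalytically inactive phosphatase that binds MAP kinases, was at 1.57, 1.44, 1.61 and 1.55 in BIRB796 tissue and at 2.29, 2.17, 2.20 and 2.18 in stretched tissue (log2 difference 0.67 ± 0.07, adjusted p = 0.0490 by limma). A second Styx probe, on chr15:21257418-21257477 next to the tested one on chr15:21257349-21257408 (rn4), differed by 0.13, so the probes of this gene disagree. The serine protease gene Prss46 was dim, from -6.37 to -6.06 in BIRB796 tissue and from -5.40 to -5.02 in stretched tissue (1.02 ± 0.11, adjusted p = 0.0490). Bco1, whose enzyme cuts beta-carotene, was the dimmest of the 5, from -7.58 to -7.36 and from -6.78 to -6.54 (0.82 ± 0.09, adjusted p = 0.0490). With normexp and quantile scaling neither dim gene was called: Prss46 differed by 0.42 (adjusted p = 0.0857) and Bco1 by 0.22 (adjusted p = 0.266). The fifth, probe A_64_P086187 at chr2:177242710-177242769 (rn4), has no gene name in the tables used here and went from between 0.82 and 0.96 to between 1.54 and 1.69 (0.76 ± 0.07, adjusted p = 0.0365). In each of these 5 all 8 arrays were well above background and the groups did not overlap. With slide as a fixed block none of the 5 was called: Scd differed by 1.09 with an adjusted p of 0.117, and the other 4 had an adjusted p from 0.132 to 0.18. With slide as a random block all 5 were called. None was called when any 1 of the 8 arrays was left out: the adjusted p of Scd then ran from 0.0519 to 0.179, and its difference from 1.00 to 1.09.

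**Figure D1:**
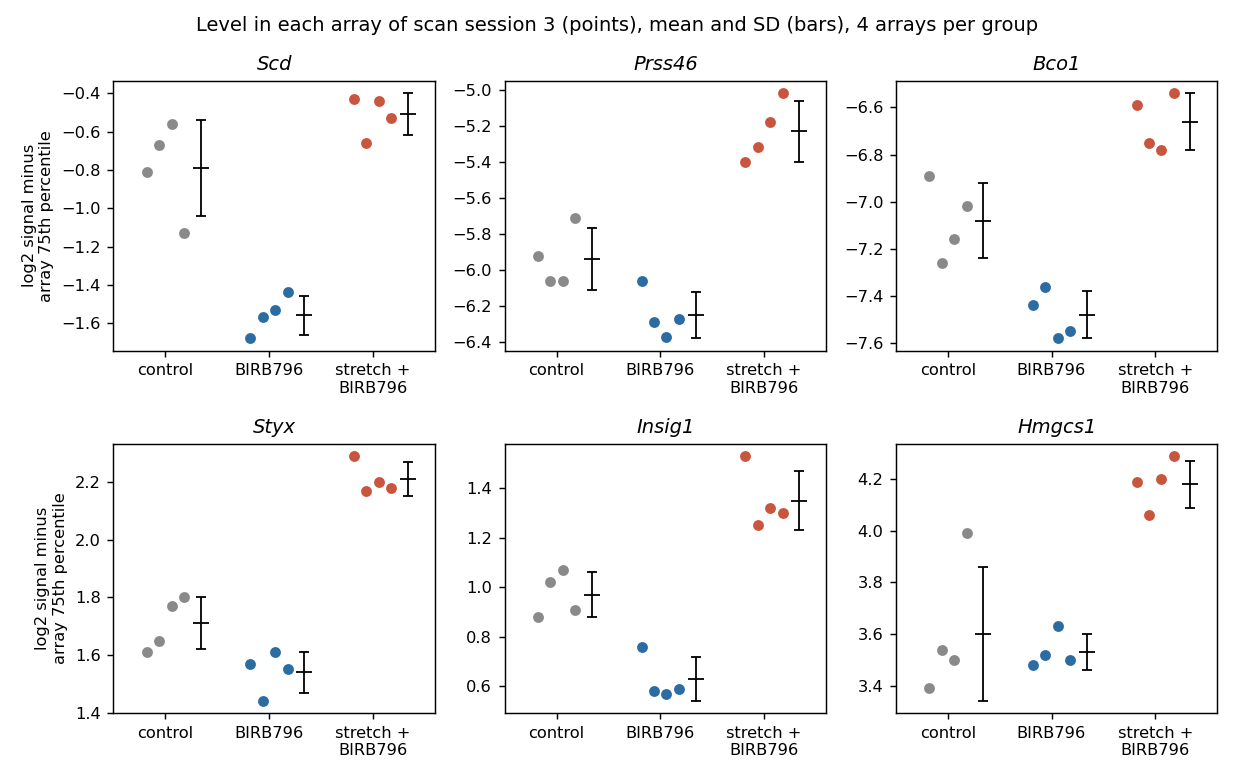
Levels of the 4 called genes with a symbol and of the sterol genes Insig1 and Hmgcs1, each in its own panel. The y axis is the log2 signal minus the array's 75th percentile, points are arrays, and the bar beside them is the mean with its SD (4 arrays per group). In every panel the 4 arrays of stretch with BIRB796 lie above the 4 of BIRB796 alone, in Scd by at least 0.78.

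Genes of cholesterol synthesis were higher as a group, though none passed the adjusted threshold. All 25 genes of the sterol synthesis list were measured and all 25 were higher in stretched tissue, with a median of 0.51 against 0.05 for all genes. In 21 of the 25 the groups did not overlap, where 5.18% of all genes did the same, and 25 of 25 had an unadjusted p under 0.05, against 6.81% of all genes. None was called (limma, smallest adjusted p 0.0557). The list's mean level was -0.44 to -0.22 on the BIRB796 arrays and 0.093 to 0.213 on the stretched arrays. The 4 control arrays of the session, at -0.27 to -0.196, reached into the BIRB796 range and lay below all stretched arrays. The 25 genes are read from the same 8 RNA samples, so they are not 25 independent observations. A fit that also held the 4 controls of the session called 23 of 20050 genes higher and 5 lower. Among them were 7 of this list: Insig1, Lss, Fdps, Sqle, Idi1, Fdft1 and Hsd17b7. Array weights called 12 of the list, normexp with quantile scaling 7 and a trend with robust prior 6. Slide as a random block called 4, as did genes above background on all 8 arrays. All other alternatives called 0 of the list, among them slide as a fixed block, quantile scaling, the deposited table and each left-out array. With arrays scaled to their median, 25 of 25 genes were higher by a median of 0.45 and 11 did not overlap, where 2.20% of all genes did the same. Most of the macrophage and endothelial markers described further on were lower in the same arrays, none of them called, and their part in the sterol values was not tested.

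Promoters of these genes were read from RefSeq's windows of build GRCr8, over 250 bases before each start. Of the 25 sterol genes 17 had a window. The letters CCAAT, on either strand, stood in 14 of the 17 windows (82.4%), against 34.0% of all 33469 windows in the table. They also stood in 9 of 13 windows of 12 fatty acid synthesis genes (69.2%). The sterol regulatory element core TCACNCCAC, where N is any base, stood in 0 of 17 and 0 of 13 windows, against 0.974% of all. The shorter CACNCCAC, which lies within that core and was searched after the core gave no match, stood in 3 of 17 (17.6%) and 2 of 13 (15.4%), against 4.89% of all. These 3 motifs were the only ones searched. A match is a description of the letters and no match says only that they are not in this window. The 160 bases before the start of 5 genes with large differences are given here 5′ to 3′ on the gene's strand, picked after the search because each holds CCAAT or its reverse complement ATTGG, in capitals.
Hmgcs1: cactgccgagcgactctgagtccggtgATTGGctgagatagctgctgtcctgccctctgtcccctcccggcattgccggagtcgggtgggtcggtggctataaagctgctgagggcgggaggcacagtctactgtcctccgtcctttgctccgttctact
Idi1: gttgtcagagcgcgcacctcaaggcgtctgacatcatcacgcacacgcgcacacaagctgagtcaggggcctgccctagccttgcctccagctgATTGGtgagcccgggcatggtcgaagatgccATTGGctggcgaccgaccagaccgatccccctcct
Fdps: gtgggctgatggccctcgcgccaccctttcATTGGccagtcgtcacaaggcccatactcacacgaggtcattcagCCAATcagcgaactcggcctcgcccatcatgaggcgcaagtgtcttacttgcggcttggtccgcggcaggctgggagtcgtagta
Lss: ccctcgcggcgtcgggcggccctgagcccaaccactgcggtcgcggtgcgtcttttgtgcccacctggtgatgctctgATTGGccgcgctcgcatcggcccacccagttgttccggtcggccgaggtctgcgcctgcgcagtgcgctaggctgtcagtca
Hsd17b7: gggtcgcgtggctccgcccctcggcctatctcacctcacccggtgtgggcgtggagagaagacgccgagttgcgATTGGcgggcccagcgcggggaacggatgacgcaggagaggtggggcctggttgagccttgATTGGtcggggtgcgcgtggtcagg

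In GRCr8 these stretches are chr2:53382144-53382303 on the plus strand for Hmgcs1, and on the minus strand chr17:66547525-66547684 for Idi1, chr2:176804817-176804976 for Fdps, chr20:12118231-12118390 for Lss and chr13:84722755-84722914 for Hsd17b7. The motif began 133 bases before the start in Hmgcs1, 66 and 35 in Idi1, 130 and 85 in Fdps, 82 in Lss and 86 and 25 in Hsd17b7. Scd itself, the gene with the largest difference of both pathways, had no CCAAT in its window.

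At the entry of the pathway stands Hmgcs1, the cytosolic HMG-CoA synthase. It was at 3.48, 3.52, 3.63 and 3.50 in BIRB796 tissue and at 4.19, 4.06, 4.20 and 4.29 in stretched tissue, a difference of 0.65 ± 0.08 (1.57-fold, adjusted p = 0.0557 by limma). The control arrays had 3.39, 3.54, 3.50 and 3.99, so the lowest stretched array stood above all 8 arrays of unstretched tissue. The mevalonate kinases Mvk and Pmvk differed by 0.36 ± 0.12 and 0.25 ± 0.07, and the decarboxylase Mvd by 0.37 ± 0.10.

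The isoprenoid steps followed. Idi1, the isomerase that makes dimethylallyl diphosphate, was at 0.68, 0.80, 0.69 and 0.75 against 1.60, 1.27, 1.41 and 1.42 (0.69 ± 0.08, adjusted p = 0.0630 by limma). Fdps, farnesyl diphosphate synthase, had a mean of 2.65 ± 0.13 (SD, n = 4) in BIRB796 tissue and of 3.28 ± 0.08 in stretched tissue, a difference of 0.63 ± 0.09 (SE). A second Fdps probe gave 0.61. Squalene synthase, Fdft1, differed by 0.50 ± 0.08, and squalene epoxidase, Sqle, by 0.63 ± 0.09.

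Of the enzymes that turn squalene into cholesterol, lanosterol synthase, Lss, had the tightest groups. It was at -0.37, -0.34, -0.23 and -0.30 in BIRB796 tissue and at 0.29, 0.22, 0.29 and 0.36 in stretched tissue (0.60 ± 0.07, 1.51-fold, adjusted p = 0.0557 by limma). Msmo1, Tm7sf2 and Hsd17b7, which trim and reduce the sterol ring system, differed by 0.58 ± 0.11, 0.65 ± 0.13 and 0.63 ± 0.11. The last steps had smaller or noisier differences. Ebp, the sterol isomerase, had the smallest of the list at 0.19 ± 0.07, and its groups overlapped, as did those of Nsdhl (0.33 ± 0.11) and Mvk. Dhcr7, which makes cholesterol from 7-dehydrocholesterol, differed by 0.49 ± 0.11.

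The regulators were higher as well. Insig1, which holds SREBP back in the endoplasmic reticulum and is itself an SREBP target, was at 0.76, 0.58, 0.57 and 0.59 in BIRB796 tissue and at 1.53, 1.25, 1.32 and 1.30 in stretched tissue (0.72 ± 0.09, 1.65-fold, adjusted p = 0.0630 by limma). The controls had 0.88, 1.02, 1.07 and 0.91, between the groups and overlapping neither. The gene of the transcription factor SREBP2, Srebf2, differed by 0.31 ± 0.09 and the sterol carrier Stard4 by 0.30 ± 0.08. Over the list, the control mean lay above the BIRB796 mean in 21 of 25 genes and below the stretched mean in 24 of 25.

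**Figure D2:**
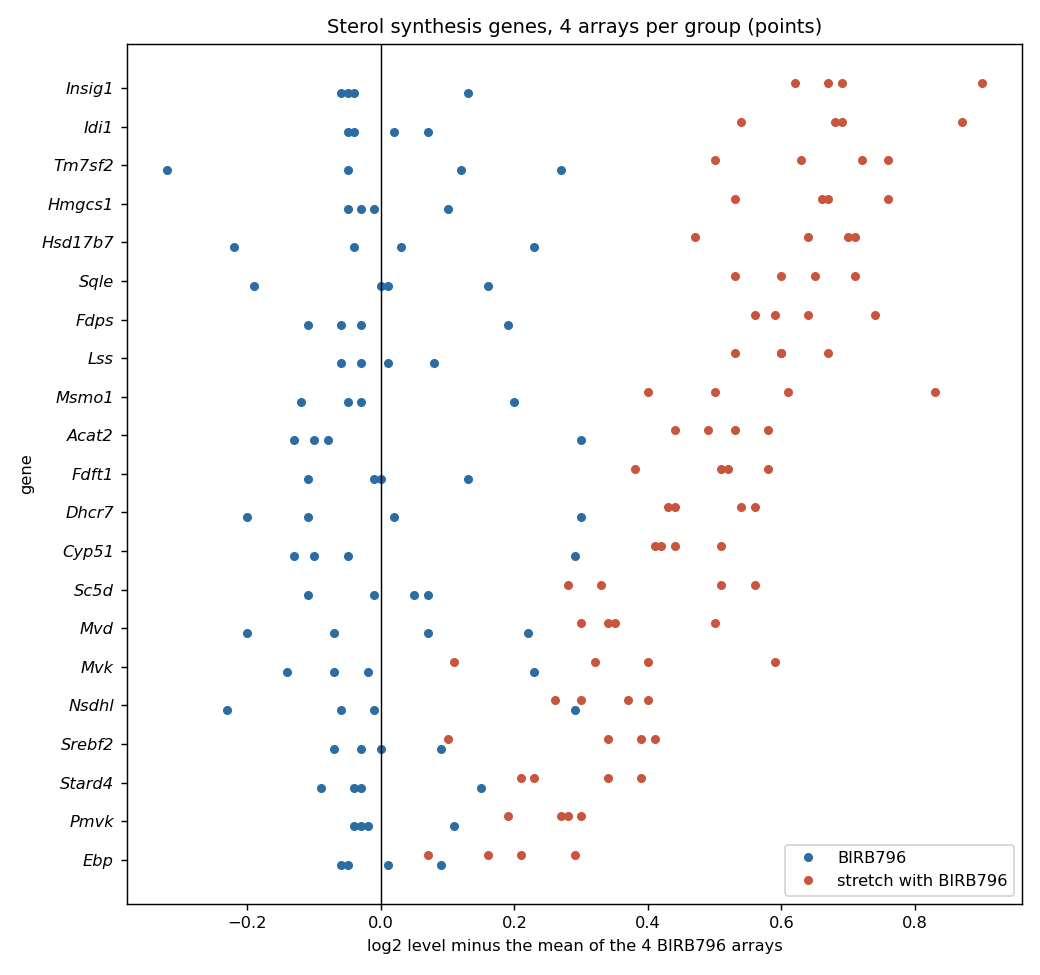
21 of the 25 sterol synthesis genes, each on a row, ordered by the size of its difference. The x axis is the log2 level of an array minus the mean of the 4 BIRB796 arrays, with blue points for BIRB796 and red for stretch with BIRB796 (4 arrays each). In 18 of 21 rows no red point reaches into the blue ones.

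Within slides the sterol genes kept their direction. All 25 were higher within slide 6, with a median of 0.65, and all 25 within slide 9, with a median of 0.54. In the 21 genes whose groups did not overlap that sign was given beforehand, since every stretched array lay above. The median over all genes was 0.01 within either slide. Lss, for example, was 0.65 higher in both, and Insig1 0.76 and 0.72. With both slide 6 arrays left out, an alternative chosen after seeing the data, the list's median was 0.45 and 22 of 25 genes did not overlap (14.3% of all genes with 3 arrays per group), again with 0 genes of the list called. Slide 8 held no BIRB796 array without stretch, so it gives no value.

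Stretch without the inhibitor could be set beside this only in scan session 1, which held 3 control and 3 stretch arrays, none of them used above. There the sterol list's median was 0.16, and 18 of 25 genes were higher, where 55.0% of all genes were. Hmgcs1 differed by 0.60 ± 0.26, Idi1 by 0.52 ± 0.27, Msmo1 by 0.47 ± 0.21, Insig1 by -0.03 ± 0.30 and Lss by -0.10 ± 0.18 (each adjusted p = 1.00 by limma). Among these 5, Hmgcs1 and Idi1 had the largest values without the inhibitor, while Insig1 and Lss were below 0 there. The difference between the stretch effects with and without BIRB796 was tested over all 4 groups with a scan session term, stretch replicates 4 and 5 counted as 1 sample because they differed by less than the noise within an array: 0 of 23272 genes were called, and 322 had an unadjusted p under 0.05. The latter count was 1050 with sessions 1 and 3 alone, 664 with no session term, 1196 without stretch replicate 3 and 927 without stretch replicate 7, and 207 without stretched BIRB796 replicate 2, with 0 called in each. That difference was 0.70 ± 0.29 for Lss, 0.76 ± 0.39 for Insig1, 0.74 ± 0.42 for Scd and 0.05 ± 0.29 for Hmgcs1. Its median was 0.30 over the sterol list and 0.02 over all genes, and none of these genes passed the test.

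**Figure D3:**
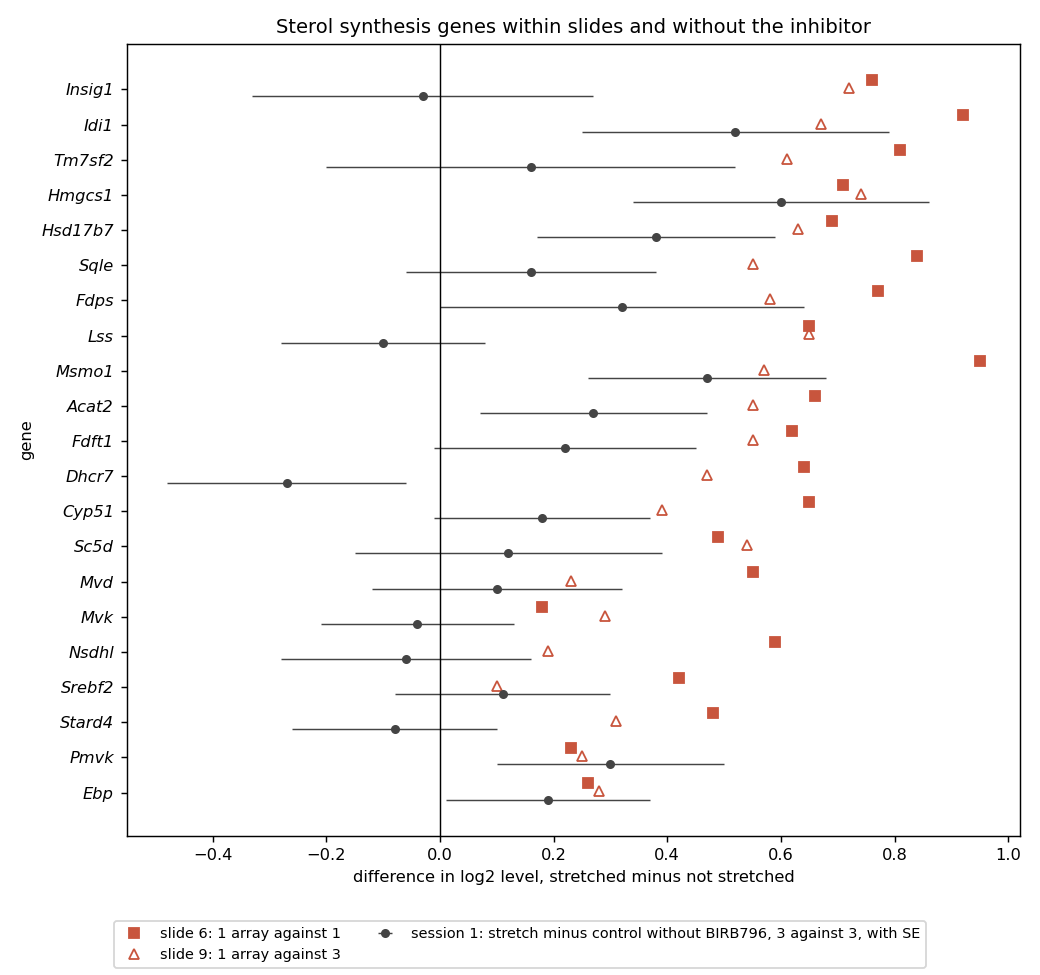
Differences of 21 of the 25 sterol synthesis genes, stretched minus not stretched, in log2 units on the x axis. Red squares are slide 6 and red triangles slide 9, both with BIRB796, and dark points with SE bars are session 1 without the inhibitor (3 arrays against 3). All red marks lie above 0, while 6 of the 21 dark points lie below it.

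Fatty acid synthesis genes, a list put together after the values had been seen, pointed the same way. All 15 were higher, with a median of 0.27, and in 7 the groups did not overlap, against 5.18% of all genes. Besides Scd, these 7 were the desaturase Scd2 (0.39 ± 0.07), the front-end desaturases Fads1 (0.53 ± 0.11) and Fads2 (0.45 ± 0.11), the acetoacetyl-CoA synthetase Aacs (0.35 ± 0.07), acetyl-CoA carboxylase Acaca (0.53 ± 0.17) and Srebf1, the gene of the transcription factor SREBP1 (0.49 ± 0.09). Scd2 was at 3.41, 3.36, 3.41 and 3.44 in BIRB796 tissue and at 3.88, 3.79, 3.69 and 3.80 in stretched tissue. Srebf1 was at -0.37, -0.61, -0.62 and -0.55 and at -0.09, 0.10, -0.02 and -0.16. Only Scd was called, and the adjusted p of the other 14 ran from 0.164 to 0.958. Fatty acid synthase, Fasn (0.14 ± 0.08), and the glycerolipid genes Gpam (0.15 ± 0.15) and Lpin1 (0.05 ± 0.17) overlapped between the groups. The list's mean level was -1.202 to -1.169 in BIRB796 tissue, -1.10 to -1.044 in the controls of the session and -0.878 to -0.803 in stretched tissue, with no overlap between the 3 groups.

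Among genes that carry sterol out of cells or govern fat use, a few were lower, none of them called in the fit of the 8 arrays. The cholesterol exporter Abca1 was at -1.46, -1.53, -1.47 and -1.37 in BIRB796 tissue and at -2.15, -1.68, -1.90 and -1.99 in stretched tissue (-0.48 ± 0.11, adjusted p = 0.243 by limma). Apolipoprotein E, Apoe, was at 6.24, 6.20, 6.41 and 6.60 and at 5.95, 5.96, 6.05 and 5.82 (-0.42 ± 0.11, adjusted p = 0.288). These 2 were the genes of 11 LXR targets and sterol efflux genes, another list chosen after seeing values, whose stretched arrays all lay below (2.03% of all genes). The list's median was -0.02, and Lpcat3 lay above without overlap (0.21 ± 0.07). Angptl4, an inhibitor of lipoprotein lipase that PPAR factors switch on, was at -1.64, -2.13, -2.40 and -1.83 and at -2.77, -3.03, -3.27 and -3.04 (-1.03 ± 0.18, adjusted p = 0.162). The fit that also held the controls of the session called Angptl4 lower (adjusted p = 0.0334 by limma). Of 29 genes of fatty acid uptake and oxidation 21 were lower, with a median of -0.06, and 3 did not overlap, Angptl4, Hadh (-0.23 ± 0.10) and Acaa2 (-0.19 ± 0.07), again against 2.03%. Of 20 PPAR targets, likewise chosen after seeing values, 14 were lower with a median of -0.14.

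The 10 genes with the smallest p among those lower in stretched tissue did not pass either (adjusted p from 0.0787 to 0.141 by limma). Insc, an adaptor of spindle orientation, led them at -6.37, -6.18, -6.13 and -6.59 against -7.11, -7.51, -7.38 and -7.58, a difference of -1.08 ± 0.14. Control tissue had Insc at -8.27 to -7.49, below all BIRB796 arrays and overlapping the stretched ones. The matrix protein gene Smoc2 was at 1.54, 1.27, 1.49 and 1.38 against 0.82, 0.96, 0.79 and 0.92 (-0.55 ± 0.08), with the controls at 1.17 to 1.30. In session 1 without the inhibitor Smoc2 differed by 0.64 ± 0.32, the other way, and the difference between both stretch effects, -1.19 ± 0.38, was not called. The integrin-beta-like gene Itgbl1 had a difference of -0.55 ± 0.08 and the kinase gene Stk32b of -0.56 ± 0.08. The lysosomal genes Plbd1, a phospholipase B-like protein, and Naaa, an acid amidase, differed by -0.73 ± 0.10 and -0.69 ± 0.11. Necab1 (-0.75 ± 0.12), Gpat2 (-0.91 ± 0.15) and the unnamed probe A_64_P024454 (-0.79 ± 0.12) were also among the 10. Necab1 was well above background on 2 and Gpat2 on 1 of the 4 stretched arrays, so their lower levels there lie near the array's limit. Some alternative fits did call genes of these 10. With the controls of the session, Insc (adjusted p = 0.0392 by limma) and Smoc2 (0.0194) were among those called lower. A trend with robust prior called Smoc2 (0.0347), Itgbl1 (0.0249) and Plbd1 (0.0476). Slide as a random or fixed block, quantile scaling and the deposited table called 0 genes lower.

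Natriuretic peptides were highest in replicate 1 of each group and overlapped between the groups. Nppa, which encodes atrial natriuretic peptide, was at 2.85, 1.54, 1.77 and 0.90 in BIRB796 tissue and at 3.61, 1.92, 2.03 and 1.79 in stretched tissue (0.57 ± 0.51, adjusted p = 0.747 by limma). Replicate 1 lay on slide 6. Nppb was at 2.41, 1.74, 1.60 and 1.26 and at 3.75, 1.85, 1.28 and 1.61 (0.37 ± 0.52, adjusted p = 0.864). Without stretched replicate 1 the difference of Nppa was 0.15 and that of Nppb -0.17. The controls of the session had Nppa at 0.11, 0.36, 0.31 and 1.02. Of the BIRB796 arrays, replicate 4, at 0.90, lay within that range and the other 3 above it.

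Xirp2, an actin-binding protein of the intercalated disc and Z-disc, was at -2.98, -2.99, -2.60 and -2.55 in BIRB796 tissue and at -0.63, -1.61, -1.91 and -1.60 in stretched tissue. Its 1.34 ± 0.27 was 2.53-fold, with no overlap and an adjusted p of 0.204 by limma. Xirp2 was 2.34 higher within slide 6, 1.12 within slide 9 and 1.49 ± 0.61 in session 1 without the inhibitor. Csrp3, the muscle LIM protein (0.30 ± 0.10), the filamin Flnc (0.33 ± 0.09), the matrix glycoprotein Tnc (0.70 ± 0.20) and the stress cytokine Gdf15 (0.59 ± 0.22) were the other 4 of 24 cardiac stretch and hypertrophy genes whose groups did not overlap, against 5.18%. The main ventricular connexin gene, Gja1, was at -0.25, -0.62, -0.79 and -0.48 and at 0.48, -0.04, -0.10 and -0.09 (0.60 ± 0.16, adjusted p = 0.311). The median of the 24 stretch genes was 0.13, but 0.49 within slide 6 and 0.04 within slide 9, and 0.05 without stretched replicate 1. The alpha-skeletal actin Acta1 (0.12 ± 0.14), the Z-disc-linked Ankrd1 (0.14 ± 0.17) and the myosin genes Myh7 (0.11 ± 0.07) and Myh6 (0.19 ± 0.08) had an adjusted p from 0.485 to 0.826. Cardiac actin, Actc1, differed by 0.16 ± 0.11 and Tnnt2 by 0.11 ± 0.10.

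The gene of 1 ligand of the epidermal growth factor receptor, Areg, was highest in stretched replicate 1 as well. So was the mean level of AP-1 and immediate early genes. Areg, which encodes amphiregulin, was at -3.95, -3.95, -3.98 and -3.81 in BIRB796 tissue and at -2.05, -3.91, -3.89 and -3.31 in stretched tissue (0.63 ± 0.38, adjusted p = 0.621 by limma). Stretched replicates 2 and 3 were level with BIRB796 tissue. In session 1 without the inhibitor Areg differed by 2.28 ± 0.46, and the difference between both stretch effects was -1.64 ± 0.91, which was not called. Ereg, for epiregulin, differed by 0.16 ± 0.36 here and by 1.37 ± 0.39 in session 1. The AP-1 member Fosl1 was at -6.19, -5.94, -5.26 and -5.45 and at -3.87, -5.20, -5.07 and -5.10 (0.90 ± 0.33). The gap between its groups was 0.06. The retinal cadherin gene Cdhr1 differed by 0.21 ± 0.35 here, by 2.20 ± 0.44 in session 1 and by -1.99 ± 0.68 between the stretch effects, again not called. Of 13 ligands and receptors of the epidermal growth factor family 0 had groups that did not overlap. That is near the share of all genes, 5.18% above and 2.03% below. Within slide 6, 5 of the 13 were higher, with a median of -0.10, and within slide 9, 8 were, with a median of 0.05. Of 22 AP-1 and immediate early genes 21 were higher within slide 6 and 6 within slide 9, with medians of 0.63 and -0.19. Fos differed by -0.26 ± 0.39, Egr1 by -0.22 ± 0.21, the prostaglandin synthase gene Ptgs2 by 0.27 ± 0.39, the matricellular Ccn2 by -0.38 ± 0.36 and the protease inhibitor Timp1 by 0.10 ± 0.14, none of them called.

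**Figure D4:**
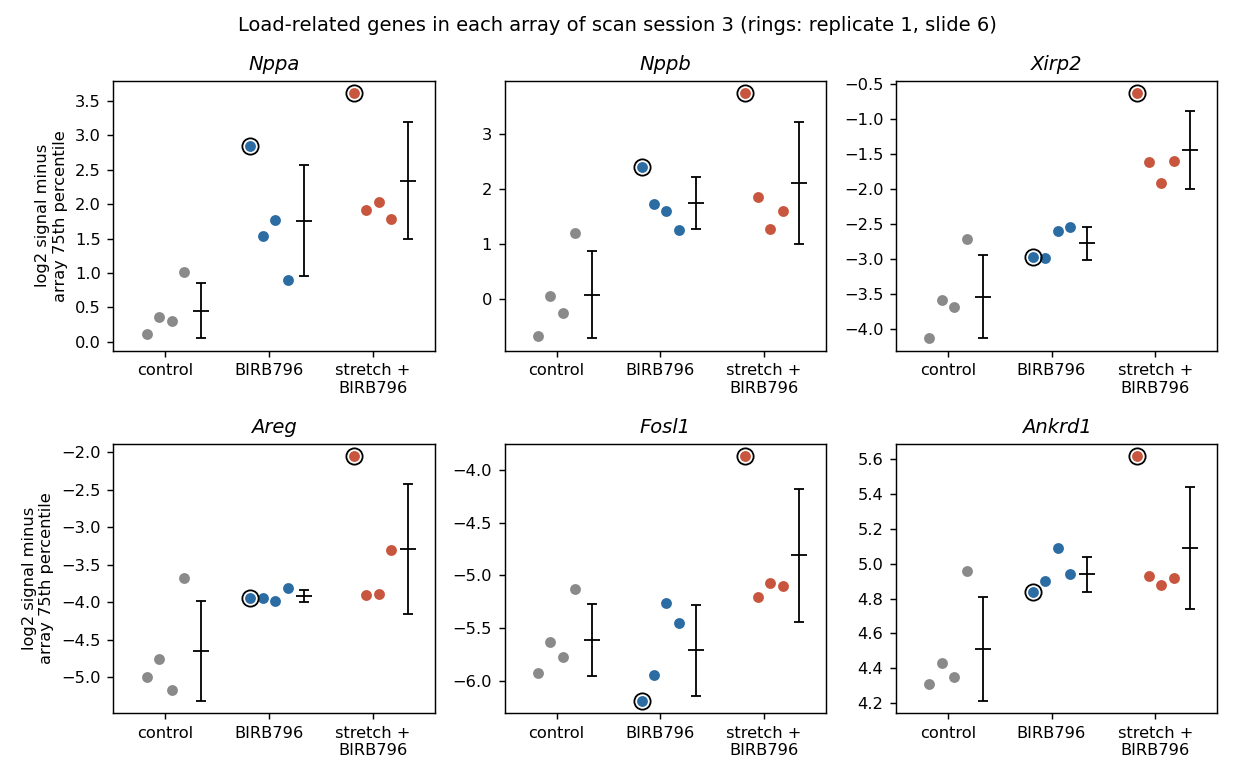
Levels of 6 load-related genes, with the log2 signal minus the array's 75th percentile on the y axis, points for arrays and bars for mean and SD (4 arrays per group). Rings mark replicate 1 of both BIRB796 groups, on slide 6. In Areg and Fosl1 the ringed stretched array, at -2.05 and -3.87, lies far above the other 3, while in Xirp2 all 4 lie above BIRB796 alone.

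RNA of the inhibitor's own pathway followed no single direction. Mapk14, which encodes p38 alpha, was at 3.21, 3.30, 3.35 and 3.32 in BIRB796 tissue and at 3.25, 3.37, 3.38 and 3.40 in stretched tissue (0.05 ± 0.07, adjusted p = 0.851 by limma). Its substrate kinase Mapkapk2 differed by -0.02 ± 0.07, and Mapkapk3 by -0.25 ± 0.07 without overlap. Hspb1, a small heat shock protein phosphorylated downstream of p38, was at 4.20, 4.17, 4.11 and 4.02 and at 4.58, 4.25, 4.25 and 4.41 (0.25 ± 0.09, adjusted p = 0.454), again without overlap. Of 23 genes of p38 kinases, activators and substrates 12 were higher and 11 lower, with a median of 0.03 that was -0.03 with the array median. Without overlap 2 of the 23 lay above and 1 below, against 5.18% and 2.03% of all genes. Heat shock genes were higher in 18 of 20, with a median of 0.11, and in 5 of them, among these Cryab (0.22 ± 0.07) and Hspb8 (0.37 ± 0.13), the groups did not overlap, where 62.5% of all genes were higher and 5.18% did not overlap. Of 22 NRF2 antioxidant genes 19 were higher (median 0.16) and 3 did not overlap, beside the same shares of all genes. Nqo1, their best-known target, was split within BIRB796 tissue, at -0.40, -0.36, -1.74 and -1.53, and lay at -0.47, -0.24, -0.16 and -0.28 in stretched tissue. None of the 25 genes tested from a panel of 26 load, p38 and marker genes was called. Il6 of that panel was not above background on enough arrays to be tested.

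Most macrophage and endothelial markers were lower in stretched tissue, but none was called (smallest adjusted p 0.193 and 0.285 by limma). Of 23 macrophage and leukocyte markers measured 21 were lower in stretched tissue, with a median of -0.27, and 5 did not overlap, against 2.03% of all genes. Adgre1, which encodes the macrophage antigen F4/80, was at 2.19, 2.37, 2.43 and 2.54 in BIRB796 tissue and at 1.43, 1.73, 2.03 and 1.66 in stretched tissue (-0.67 ± 0.14, adjusted p = 0.208 by limma). Fcer1g (-0.56 ± 0.11), Ptprc (-0.46 ± 0.11), Cd68 (-0.38 ± 0.12) and Ctss (-0.35 ± 0.10) were the other 4, whereas the complement genes C1qa (-0.06 ± 0.15) and C1qb (-0.14 ± 0.14) overlapped. The list's mean level was 0.62 to 1.043 in BIRB796 tissue, 0.478 to 0.742 in stretched tissue and 0.699 to 1.589 in the controls of the session. Cd163 was not above background on enough arrays to be tested. In session 1 without the inhibitor 23 of 23 were lower with stretch, with a median of -0.68. Of 20 endothelial markers 15 were lower, with a median of -0.20, led by Cldn5 (-1.37 ± 0.45) and Tie1 (-1.03 ± 0.26), with Pecam1 at -0.81 ± 0.27, while Cdh5 differed by 0.06 ± 0.15 and Vwf by 0.01 ± 0.12. Among the 20 endothelial markers 1 lay below without overlap, against 2.03% of all genes. The mean endothelial level ran from -3.34 to -2.80 in BIRB796 tissue, from -3.512 to -3.29 in stretched tissue and from -3.001 to -2.638 in the controls. In whole tissue fewer cells of a type and less RNA per cell cannot be told apart. Abca1, Apoe, Plbd1 and Naaa are also expressed by macrophages, and the part of these cells in their differences, or in those of the sterol genes, was not tested.

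Sarcomere genes had a median of 0.06 (0.00 with quantile scaling), mitosis genes of -0.01, collagens of 0.07 (-0.02 with normexp) and respiratory chain genes of 0.01 (-0.06 with the array median). Fibroblast markers had a median of 0.19, led by the microfibril gene Mfap5 (0.86 ± 0.34), and 1 of 16, Postn, did not overlap, near the 5.18% of all genes. Epicardial and mesothelial markers had a median of 0.29 over all arrays, but of -0.02 and 0.02 within slides 6 and 9 and of -0.01 with slide as a fixed block. Cytokines and chemokines had a median of -0.14, with 0.34 within slide 6 and -0.41 within slide 9. Receptor tyrosine kinases had a median of 0.07. Without overlap 1 of 32 lay above and 1 below, near the 5.18% and 2.03% of all genes. Among these 32, Fgfr2 was at 1.34, 1.68, 1.73 and 1.51 and at 0.87, 1.16, 1.03 and 1.07 (-0.53 ± 0.11, adjusted p = 0.205 by limma), and the collagen receptor Ddr1 differed by 0.43 ± 0.11.

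**Figure D5:**
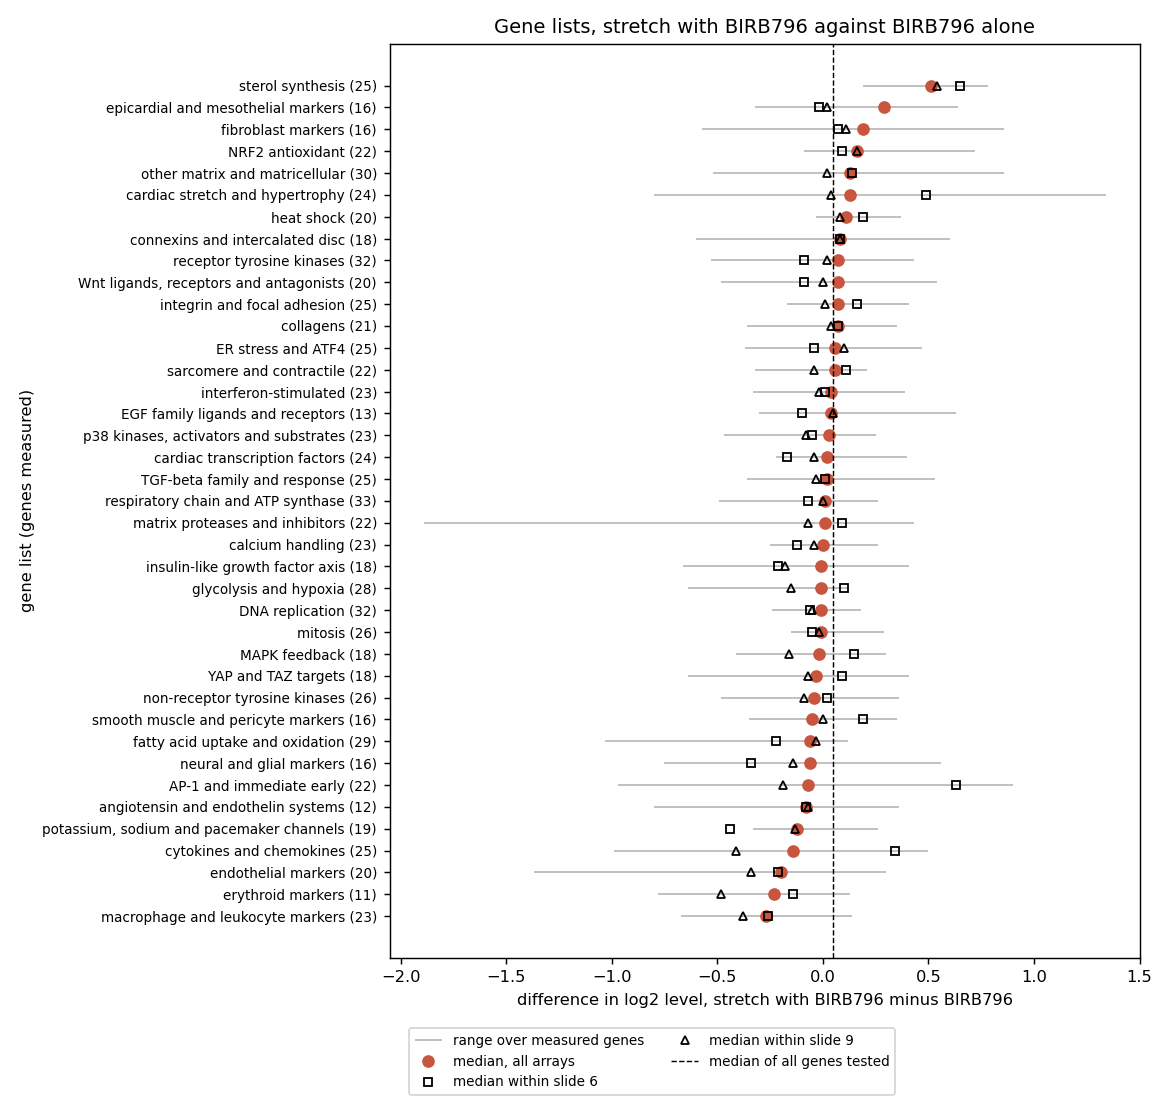
Differences of the 39 gene lists, stretch with BIRB796 minus BIRB796 in log2 units on the x axis, with the number of genes measured beside each name. Red dots are medians over all arrays, squares and triangles are medians within slides 6 and 9, grey lines are the range over genes and the dashed line is the median of all genes, 0.05. Sterol synthesis lies farthest to the right by all 3 measures, within slide 6 at 0.65 beside 0.63 for AP-1 and immediate early genes.

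The genes as a whole were set beside session 1. Of the 1013 genes with stretched arrays above all others that session 1 also measured, 64.1% were higher there too. Of 397 below, 76.3% were lower there. Over all 19586 genes 55.0% were higher in session 1, and 56.6% had the same sign in both comparisons. All 5 called genes were higher there, by a median of 0.37, and 0 of 19586 genes were called in session 1 by limma.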

How the data were processed

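The arrays are Agilent 1-colour rat arrays with Cy3-labelled RNA. The deposited scanner files hold intensities per spot that, per the file headers, had been background-subtracted by Agilent's Feature Extraction software. The authors' deposited table holds log2 values of 27873 probes, each of the 8 columns correlating best with its own array, with column medians from -0.07 to 0.02; its baseline is not given in the sources used here, and it served as an alternative. Analysis used log2 of the processed signal minus the array's 75th percentile over gene spots. Spots of a probe were averaged, and 293 probe values with outlier spots only were left out. Of 30367 probes 17998 were named by accession, 2359 by symbol and 615 by synonym through RefSeq, and 9395 kept the name in the files. A gene took its brightest probe and was tested when well above background on at least 4 of 8 arrays; 18271 of 19611 genes were so on all 8.

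Groups were compared with limma 3.58.1 in R 4.3.3, with Benjamini-Hochberg adjustment over all genes and a threshold of 0.05, on the 8 arrays with no covariate; SE is the model's. The interaction used all 4 groups with scan session as a term, in which stretch replicates 4 and 5, which differed by less than the noise within an array, were averaged and counted as 1 sample. The procedure was checked on simulated data. Within both BIRB796 groups arrays differed by more than that noise. Their number, not depth, limits precision. Alternatives were other fits, scalings, filters and left-out arrays. Since most files lack the mean signal, normexp (offset 50) used the median signal.

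The comparison, the 39 gene lists and the panel of 26 genes were chosen with earlier results of these data known, and 3 further lists (fatty acid synthesis, LXR and efflux, PPAR targets) after the values were seen, so lists are described without a test. Genes were named if called (up to 15 each way with a symbol, up to 4 per list), if in the panel, or, with fewer than 5 called in a direction, as the 10 with the smallest p. Other named genes, among them the sterol genes and the further members of lists, were chosen after their values were seen. Some genes of the lists are counted but not reported by name here.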

Additional observations from a re-analysis of the deposited data

Results flagged for a closer look

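Of 202 groups of 4 arrays checked, over named genes, sterol genes and list means, 22 held 1 array far from the other 3 by Dixon's test, which chance gives in about 1 in 20 groups. The genes and lists share arrays, so the 22 are not independent. In stretched tissue with BIRB796 the array was replicate 1, on slide 6, for Nppa at 3.61, Ankrd1 at 5.62, Fosl1 at -3.87, Ptgs2 at -5.33, Cdhr1 at -3.69, Gja1 at 0.48, Timp1 at 4.32 and Itgbl1 at 0.18. Replicate 1 was also apart in the mean level of cardiac stretch and hypertrophy genes (0.698), EGF family ligands and receptors (-3.498), YAP and TAZ targets (0.379), other matrix and matricellular genes (0.98) and smooth muscle and pericyte markers (1.601). Replicate 4 was apart in the mean of calcium handling genes (-0.633).

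In BIRB796 tissue without stretch, replicate 1 was apart for Egr1 at -0.15, Insig1 at 0.76 and the mean of TGF-beta family and response genes (-0.337). Replicate 3 was apart for Naaa at -2.74, Pmvk at 0.22 and Acat2 at 1.96. Replicate 2 was apart in the mean of erythroid markers (-5.076), and replicate 4 in the mean of MAPK feedback genes (-2.666). Slide 6 held no other BIRB796 array, but it also held control replicate 4. The mean of cardiac stretch and hypertrophy genes was -0.494 on that control and -0.405 to -0.046 on the other controls of the session. For smooth muscle and pericyte markers it was -0.027, within the -0.134 to 0.462 of the other controls. Whether slide or replicate sets the replicate 1 arrays apart was not tested.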

How the results depend on the processing

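The sterol genes kept their direction: 25 of 25 were higher in each of the 23 alternatives. Many of these could not change it. The fits with 3 or 4 groups, the replicate block and the trend with robust prior leave the difference itself as it was. Leaving out 1 array cannot turn the sign of a gene whose groups do not overlap, as in 21 of the 25. Where overlap was counted with all 8 arrays, 11 did not overlap with array median scaling (2.20% of all genes). In the other such alternatives it was 19 to 21, against 2.86% to 5.46% of all genes. Fewer arrays make this easier: with 1 left out it was 21 to 24, against 6.40% to 10.9% of all genes. Without both slide 6 arrays it was 22, against 14.3%. The number of genes called did not hold. Against 5 higher and 0 lower, the counts were 23 and 5 with the 3 groups of the session, 14 and 6 with normexp and quantile scaling, 14 and 3 with a trend and robust prior, 53 and 28 with array weights, and 1 and 1 without both slide 6 arrays, which was chosen after seeing the data (Reg3b higher, Lrrc3b lower). Higher counts were 10 with slide as a random block and with genes above background on all 8 arrays, and 2 with quantile scaling and with the mean of a gene's probes. They were 0 with 4 groups, with slide as a fixed block, with the array median, with the authors' deposited table and with no filter, while the lower count stayed at 0 in these. With a replicate block 0 genes were called. Same-numbered arrays correlated in their deviations at 0.579 for replicate 1, both on slide 6. For replicates 2 to 4 the values were 0.0447, 0.095 and 0.104, where unlike numbers among these replicates gave 0.0551 to 0.211. These values cannot show whether the arrays were paired. Leaving out 1 array gave 0 higher each time and 0 to 1 lower (Lrrc3b without BIRB796 replicate 1, Mrap2 without stretched replicate 3). The interaction called 0 to 1 genes when 1 array was left out, S100a9 at 6.35 ± 0.773 without stretched BIRB796 replicate 1. Genes named in this paragraph were chosen after their values were seen. The cause of these differences was not tested.

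Scd was called in 8 of 23 alternatives (difference 0.96 to 1.09), Styx in 6, Bco1 and Prss46 in 4 each; Bco1 went as low as 0.22 and Prss46 as 0.42. Over 110 genes and 2527 recomputed values, 85 lost the call and 62 gained it, and 74 values in 27 genes had the other sign at 2 decimals, none of them in a gene called on either side. Of 966 recomputed list medians 112 had the other sign, in 25 lists. The share of differences above 0 was 52.1% with slide as a fixed block. Arrays give no counts, so 4 per group and the signal over background limit the precision. Necab1 and Gpat2 lie near that background.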
